A study of Nicotiana tabacum with 8 samples.

Results

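*EDS1* (Nitab4.5_0002101g0050), *RIN4* (Nitab4.5_0003020g0010) and *ERF1* (Nitab4.5_0010541g0010) are 3 immune signalling genes of tobacco, followed here among 81378 genes in leaf blades. They were picked by the identifiers that the study gives for them. The study named them, together with several *PR* genes, from pathways found among genes it kept for responding to overexpression and salt combined and not to either alone. All comparisons between the 4 groups thus entered the choice. They are described below with their errors and without p-values, and nothing is read from the counts of calls given for them.

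The plants were *Nicotiana tabacum* cultivar Zhongyan 100, either wild-type (WT) or of OE-2, a single homozygous transgenic line in which *NtCBL5A*, a calcium sensor gene of the CALCINEURIN B-LIKE family, is expressed constitutively. S-OE2 and S-WT plants received 100 mM NaCl in hydroponics, reached in steps, and were sampled at 4 days of treatment. C-OE2 and C-WT plants grew without added salt. A library was made from the pooled blades, main veins removed, of 4 plants about 34 days after germination. Each of the 4 groups had 1 library in each of 2 independent experiments, which makes 8 libraries.

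EDS1 is a lipase-like protein that forms complexes with PAD4 or SAG101 and carries signals from intracellular immune receptors toward salicylic acid-dependent defense and cell death. In *Nicotiana benthamiana* it is needed for resistance to tobacco mosaic virus through the *N* receptor gene. RIN4 is a small plasma membrane protein that, in *Arabidopsis*, bacterial effectors modify and the receptors RPM1 and RPS2 guard. ERF1 belongs to the AP2/ERF transcription factors and, in *Arabidopsis*, combines ethylene and jasmonate signals to switch on defense genes. A signalling relay, a guarded target and a transcription factor thus stand at different steps of the immune response.

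The libraries held 18674594 to 31672013 counts on genes, and 44564 genes passed the filter on low counts. The pair of libraries of each group was further apart than sampling of reads alone would give, at 59.2 to 121 chi-square units per degree of freedom. The 12 photosynthesis genes with identifiers in the study took 1.14% to 1.40% of the counts in the S-OE2 libraries, against 2.05% to 3.36% in the other 6. The study selected those genes too on these samples. Nitab4.5_0007367g0040 was the 1 gene with 0 counts in all 4 WT libraries and at least 1000 in all 4 OE2 libraries, where it had 12311 to 18196. It separated the genotype labels, but it was not matched to *NtCBL5A* here. A lower share of RNA from a leaf cell type and less transcript per cell cannot be told apart in such pooled leaf tissue.

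On the Nitab-v4.5 assembly, *EDS1* lies from 261241 to 264575 on the plus strand of scaffold Nitab4.5_0002101, and its gene model spans 3335 bases with a counted length of 2210 bases. *RIN4* lies from 71694 to 73243 on the plus strand of scaffold Nitab4.5_0003020, with 621 counted bases in a span of 1550. *ERF1* lies from 60997 to 61758 on the plus strand of scaffold Nitab4.5_0010541, and its counted length of 762 bases equals its span, so its model holds no intron. No other gene of the table overlaps any of the 3 models. Tobacco is an allotetraploid, and how reads that fit several gene copies were counted is not given in the sources used here, so the values may miss or share reads of near-identical copies.

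All 3 genes were highest in salt-treated OE-2 leaves in both experiments. The same libraries had the lowest shares of counts on the photosynthesis genes, and the part of this in the levels was not tested. Levels are given as CPM, the counts of a gene relative to the library total, after scaling between libraries with edgeR's TMM factors.

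*EDS1* had 34.4 and 28.1 CPM in S-OE2 of Experiments 1 and 2, against 12.8 and 6.38 CPM in S-WT. In the control groups it had 7.82 and 5.93 CPM in C-OE2, against 5.89 and 5.21 CPM in C-WT. The S-OE2 libraries stood apart from the other 6, and the order S-OE2, S-WT, C-OE2, C-WT was the same in both experiments. The values of S-WT and C-OE2 overlapped, while C-OE2 and C-WT were separated by a margin far smaller than the gap within C-OE2. The counts behind these values were 1179 and 920 in S-OE2 and at least 83 elsewhere. The 83 counts, in C-WT of Experiment 1, had a 95% exact Poisson interval of 66.1 to 103. Counting error was small beside the distance of S-OE2 from the other libraries. It was not small beside the margin between C-OE2 and C-WT, or beside that between S-WT and C-OE2 in Experiment 2.

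*RIN4* had 13.6 and 8.09 CPM in S-OE2 of Experiments 1 and 2, against 3.13 and 0.38 CPM in S-WT. It had 1.29 and 0.57 CPM in C-OE2, against 0.78 and 0.97 CPM in C-WT. S-OE2 was again apart from all other libraries, and the S-WT, C-OE2 and C-WT values overlapped one another. Outside S-OE2 *RIN4* rested on few counts, with 10 in S-WT of Experiment 2 (95% exact Poisson interval 4.80 to 18.4) and 11 in C-WT of Experiment 1 (5.49 to 19.7). Such intervals cover counting error only.

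*ERF1* had 12.1 and 3.85 CPM in S-OE2 of Experiments 1 and 2, against 3.42 and 0.68 CPM in S-WT. It had 1.09 and 0.36 CPM in C-OE2, against 1.70 and 0.61 CPM in C-WT. The lowest S-OE2 library lay just above the highest S-WT library, which came from the other experiment, and the remaining groups overlapped. In each experiment taken alone the order was S-OE2, S-WT, C-WT, C-OE2. The counts of *ERF1* ran from 414 in S-OE2 of Experiment 1 to 12 in C-OE2 of Experiment 2 (95% exact Poisson interval 6.20 to 21.0). In Experiment 2, S-WT had 18 counts (10.7 to 28.4) and C-WT 15 (8.40 to 24.7). These intervals overlap, so the order below S-OE2 in Experiment 2 lies within counting error.

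**Figure D1:**
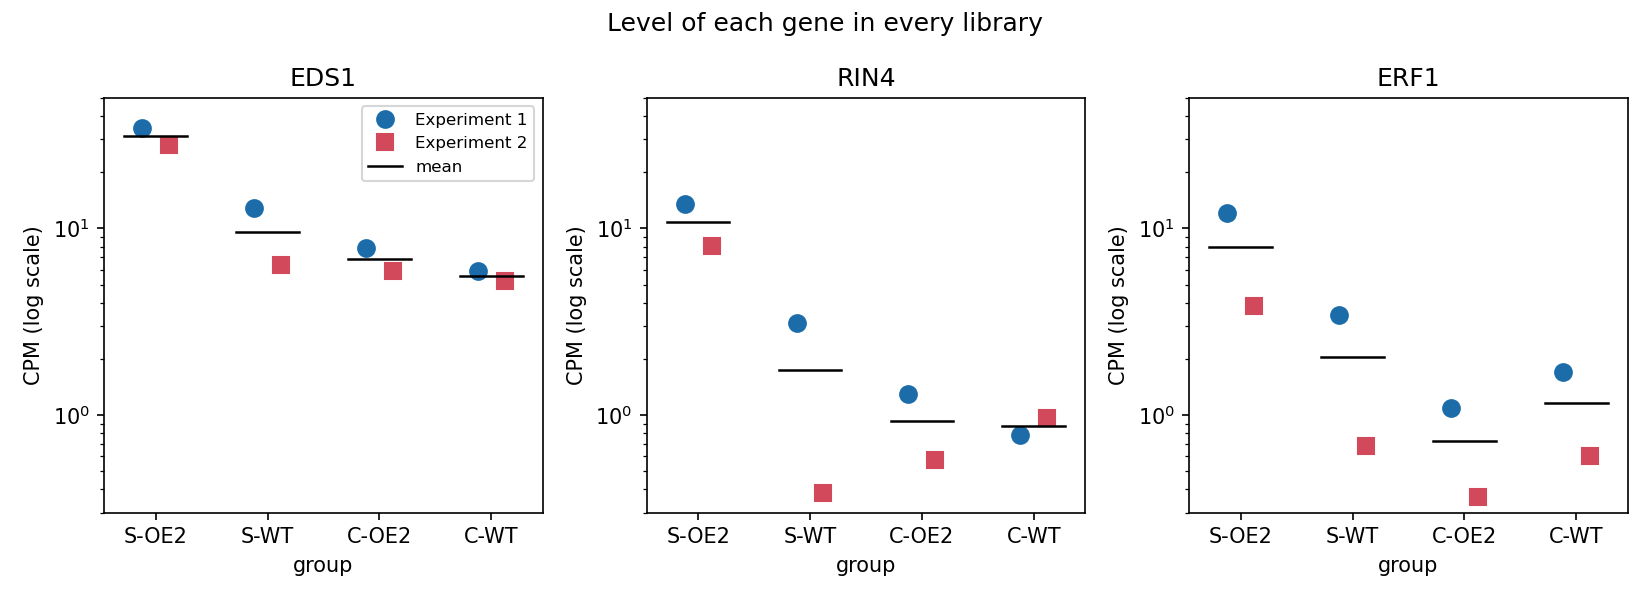
CPM of *EDS1*, *RIN4* and *ERF1* (log axis) in each library, by group. Circles are Experiment 1, squares are Experiment 2 and lines are group means (n = 2). The S-OE2 libraries lie above all others for each gene, down to 3.85 CPM for *ERF1*, and the experiments lie far apart for *RIN4* in S-WT (3.13 and 0.38 CPM) and for *ERF1* in every group.

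The first comparison set the line OE-2 against WT in salt-treated leaves. *EDS1* averaged 31.3 ± 4.49 CPM in S-OE2 and 9.59 ± 4.54 CPM in S-WT (SD, n = 2 each), a 3.38-fold higher level in the fit over all libraries. *RIN4* averaged 10.8 ± 3.86 CPM in S-OE2 and 1.75 ± 1.94 CPM in S-WT (SD, n = 2 each), with a fitted fold of 7.38. *ERF1* averaged 7.97 ± 5.83 CPM in S-OE2 and 2.05 ± 1.93 CPM in S-WT (SD, n = 2 each), and its fitted fold was 4.24. On the log2 scale the differences were 1.76 (standard error 0.25), 2.88 (standard error 0.56) and 2.08 (standard error 0.32), beside a median of 0.01 over all genes tested. Within the experiments, the S-OE2 level of *EDS1* was 4.40-fold that of S-WT in Experiment 2 and 2.69-fold in Experiment 1. For *ERF1* the folds were 5.63 in Experiment 2 and 3.54 in Experiment 1. *RIN4* was the least even, with folds of 21.3 in Experiment 2 and 4.33 in Experiment 1. The fold of 21.3 rests on 10 counts in S-WT (95% exact Poisson interval 4.80 to 18.4), so its size is uncertain. On the log2 scale, the joint value of *RIN4* became 4.46 when S-WT of Experiment 1 was dropped and 2.05 when S-WT of Experiment 2 was. A larger difference than that of *EDS1* was fitted for 5.61% of all genes, than that of *ERF1* for 4.63% and than that of *RIN4* for 3.12%.

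All 3 genes were among those called in favour of S-OE2 over S-WT by edgeR's quasi-likelihood test at an adjusted p below 0.05, as were 4.17% of the genes tested. This is the contrast that chose them, so nothing is read from the count. With the experiment left out as a term it was 0 of 3, where 5 genes were called in all, against 3288 with the term. Without the S-OE2 library of Experiment 1 the log2 differences were 1.88 for *EDS1*, 3.23 for *RIN4* and 2.18 for *ERF1*. They were 1.66, 2.64 and 2.02 without that of Experiment 2. Both S-OE2 libraries lay above both S-WT libraries for all 3 genes and for 22% of the genes tested.

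The second comparison, of salt-treated with control leaves of OE-2, gave larger and more even values. *EDS1* was 31.3 ± 4.49 CPM in S-OE2 and 6.87 ± 1.34 CPM in C-OE2 (SD, n = 2 each), with a log2 difference of 2.19 (standard error 0.25). *RIN4* was 10.8 ± 3.86 CPM in S-OE2 and 0.93 ± 0.51 CPM in C-OE2 (SD, n = 2 each), with a log2 difference of 3.60 (standard error 0.59). *ERF1* was 7.97 ± 5.83 CPM in S-OE2 and 0.72 ± 0.51 CPM in C-OE2 (SD, n = 2 each), with a log2 difference of 3.44 (standard error 0.35). The experiments set the wide SDs of *ERF1*, and within them its ratio was nearly the same, 10.6-fold in Experiment 2 and 11.1-fold in Experiment 1. The ratios of *EDS1* were 4.74-fold in Experiment 2 and 4.41-fold in Experiment 1, and those of *RIN4* were 14.1-fold and 10.5-fold. The salt-treated and control libraries of OE-2 did not overlap for any of the 3 genes, which was true, in the same direction, of 25.2% of the genes tested. The 3 genes were called higher, as were 5.73% of the genes tested, and this contrast also served to choose them. Without the experiment as a term the count was 0 of 3, where 263 genes were called in all, against 5309 with the term. Without C-OE2 of Experiment 1 the log2 differences were 2.15 for *EDS1*, 3.63 for *RIN4* and 3.31 for *ERF1*. Without C-OE2 of Experiment 2 they were 2.24, 3.58 and 3.55. Total-count scaling raised the median of all genes in this comparison to 0.50 and the values of *EDS1*, *RIN4* and *ERF1* to 2.67, 4.08 and 3.93.

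In WT leaves the differences between salt and control were smaller, and the experiments gave unlike values. Each experiment sets 1 library against 1, and the difference between the experiments was not tested. The joint log2 difference of S-WT from C-WT was 0.72 (standard error 0.26) for *EDS1*, 0.57 (standard error 0.64) for *RIN4* and 0.67 (standard error 0.36) for *ERF1*. In Experiment 2, *EDS1* was 1.22-fold and *ERF1* 1.13-fold the C-WT level in S-WT, while *RIN4* was at 0.39 of it. In Experiment 1 the S-WT level was 2.17-fold that of C-WT for *EDS1*, 2.00-fold for *ERF1* and 4.00-fold for *RIN4*. The ratio was thus lower in Experiment 2 than in Experiment 1 for each gene. A gap between the experiments at least as large as that of *EDS1* was found for 16.7% of all genes, as that of *ERF1* for 16.7% and as that of *RIN4* for 2.04%. The values of *RIN4* in Experiment 2 rest on 10 counts in S-WT and 24 in C-WT, with exact Poisson intervals of 4.80 to 18.4 and 15.4 to 35.7. These intervals of raw counts overlap in part, which does not test the difference between the libraries. The joint value of *RIN4* turned to -0.97 when S-WT of Experiment 1 was dropped, and to -0.26 when C-WT of Experiment 1 was. Dropping that S-WT library gave 0.35 for *EDS1* and 0.23 for *ERF1*, and both stayed positive whichever library was dropped. Both S-WT libraries lay above both C-WT libraries for *EDS1* alone, and for 16% of the genes tested. By edgeR's quasi-likelihood test, 0 of the 3 genes were called higher, against 0.0381% of the genes tested, and the absence of a call here was a condition of the study's choice. An unadjusted p below 0.05 was found for 1 of the 3 and for 4294 of the 44564 genes tested, and DESeq2 called 0 of the 3 and 590 genes in all.

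Under control conditions overexpression went with differences of either sign. The log2 difference of C-OE2 from C-WT was 0.29 (standard error 0.26) for *EDS1*, -0.15 (standard error 0.65) for *RIN4* and -0.69 (standard error 0.39) for *ERF1*. A higher value than that of *EDS1* was fitted for 23.7% of all genes, than that of *RIN4* for 69.6% and than that of *ERF1* for 94.4%. *EDS1* was 1.14-fold higher in C-OE2 in Experiment 2 and 1.33-fold in Experiment 1. *ERF1* stood at 0.60 of the C-WT level in C-OE2 of Experiment 2 and at 0.64 in Experiment 1, on 12 to 24 counts a library. *RIN4* stood at 0.59 in Experiment 2 and at 1.66 in Experiment 1, and dropping the Experiment 2 library of C-WT turned its joint value to 0.88. Both C-OE2 libraries lay above both C-WT libraries for *EDS1*, whose lowest C-OE2 value was 5.93 CPM and highest C-WT value 5.89 CPM, and for 13.4% of the genes tested. None of the 3 genes was called in either direction by edgeR's quasi-likelihood test, where 0.0359% of the genes tested were. The absence of a call was a condition of the choice here as well. An unadjusted p below 0.05 was found for 0 of the 3 and for 2015 of the 44564 genes tested, and DESeq2 called 0 of the 3 and 243 genes in all. All 4 of these comparisons share libraries in pairs, so they are not independent of one another.

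The interaction, the difference of OE-2 from WT in salt-treated leaves minus that in control leaves, was positive for each gene in both experiments. It was 1.47 (standard error 0.36) for *EDS1*, 3.03 (standard error 0.87) for *RIN4* and 2.77 (standard error 0.50) for *ERF1* on the log2 scale. Within the experiments it was 1.95 in Experiment 2 and 1.02 in Experiment 1 for *EDS1*, and 3.23 and 2.47 for *ERF1*. *RIN4* again spread most, with 5.17 in Experiment 2, where S-WT had 10 counts, and 1.39 in Experiment 1, where C-WT had 11. Dropping 1 library at a time gave 2.11 (C-WT of Experiment 2 dropped) to 4.54 (S-WT of Experiment 1 dropped) for *RIN4*. The genes were chosen for this pattern. Of the 3, 0 were called by edgeR's quasi-likelihood test, against 0.0135% of all genes tested in that direction, and 3 had an unadjusted p below 0.05, as did 4389 of the 44564 genes tested. DESeq2 called 3 of 3 and 820 genes in all, and edgeR with no filter on low counts called 1 of 3 and 357 in all.

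**Figure D2:**
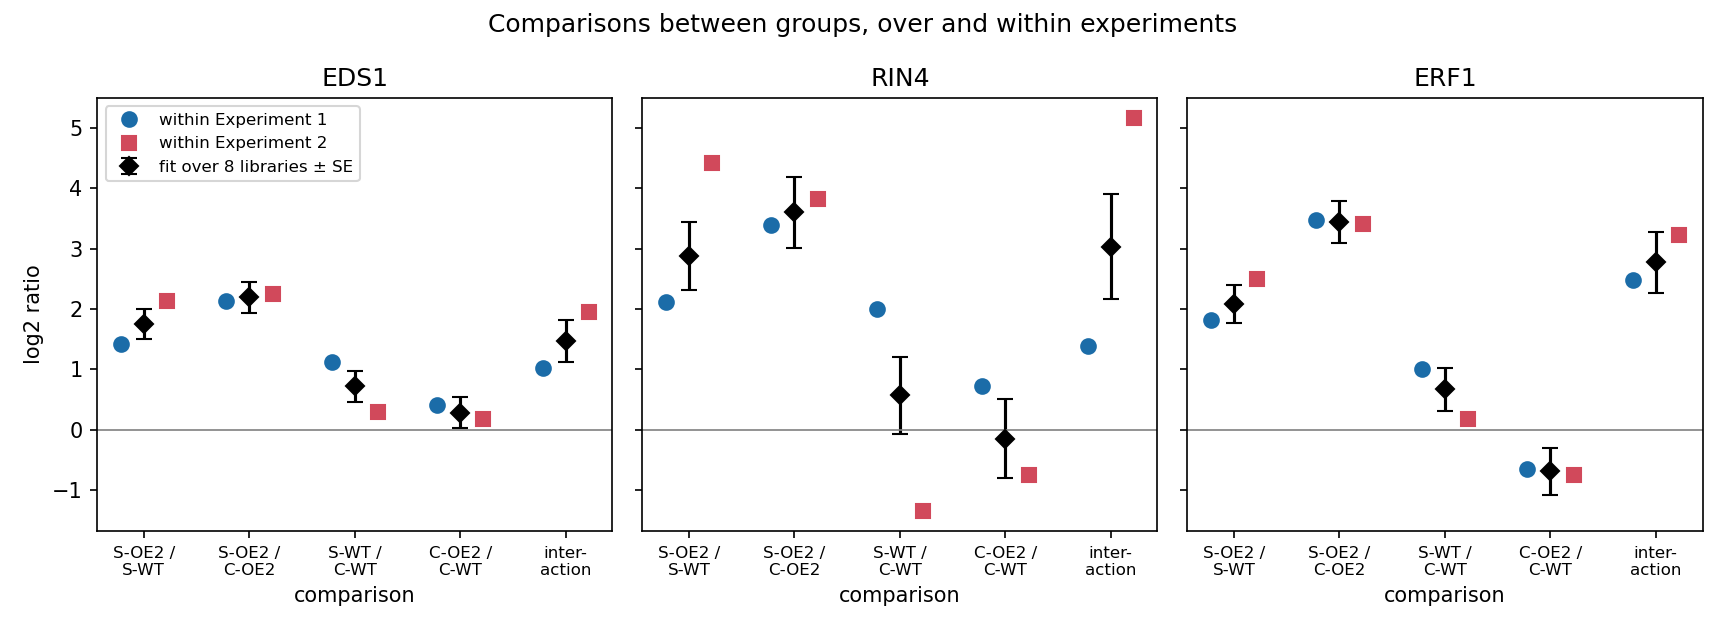
Log2 ratios of the 3 genes for the 4 comparisons of groups and for the interaction. Diamonds are the fit over 8 libraries with the standard error, circles the value within Experiment 1 and squares that within Experiment 2. The S-OE2/C-OE2 values of the experiments nearly coincide for *EDS1* and *ERF1*, whereas *RIN4* has opposite signs in the experiments for S-WT/C-WT (-1.35 in Experiment 2, 2.00 in Experiment 1) and for C-OE2/C-WT (-0.75 and 0.73).

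The 3 genes also differed in their standing relative to one another. Levels per length rest on the lengths of the gene models, and whether the models cover the whole transcripts was not tested. Divided by counted length, *EDS1* had 15.6 and 12.7 CPM per kilobase in S-OE2 of Experiments 1 and 2, *RIN4* had 21.8 and 13.0, and *ERF1* had 15.9 and 5.05. In C-WT the per-length levels were 2.67 and 2.36 for *EDS1*, 1.26 and 1.56 for *RIN4*, and 2.24 and 0.80 for *ERF1*. *EDS1* thus had the highest level per length in all 6 libraries outside S-OE2, although the counting intervals overlapped in some of them, such as for *RIN4* and *EDS1* in S-WT of Experiment 1, while *RIN4* had it in S-OE2 of Experiment 1. In S-OE2 of Experiment 2 *RIN4* and *EDS1* were level within counting error, on 265 counts of *RIN4* (95% exact Poisson interval 234 to 299) and 920 of *EDS1* (862 to 981). The ratio of *RIN4* to *EDS1* was 1.40 and 1.03 in S-OE2, 0.87 and 0.21 in S-WT, 0.59 and 0.34 in C-OE2, and 0.47 and 0.66 in C-WT. The ratio of *ERF1* to *EDS1* split mainly by experiment. It ran from 0.18 to 0.40 in the 4 libraries of Experiment 2 and from 0.40 to 1.02 in those of Experiment 1.

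**Figure D3:**
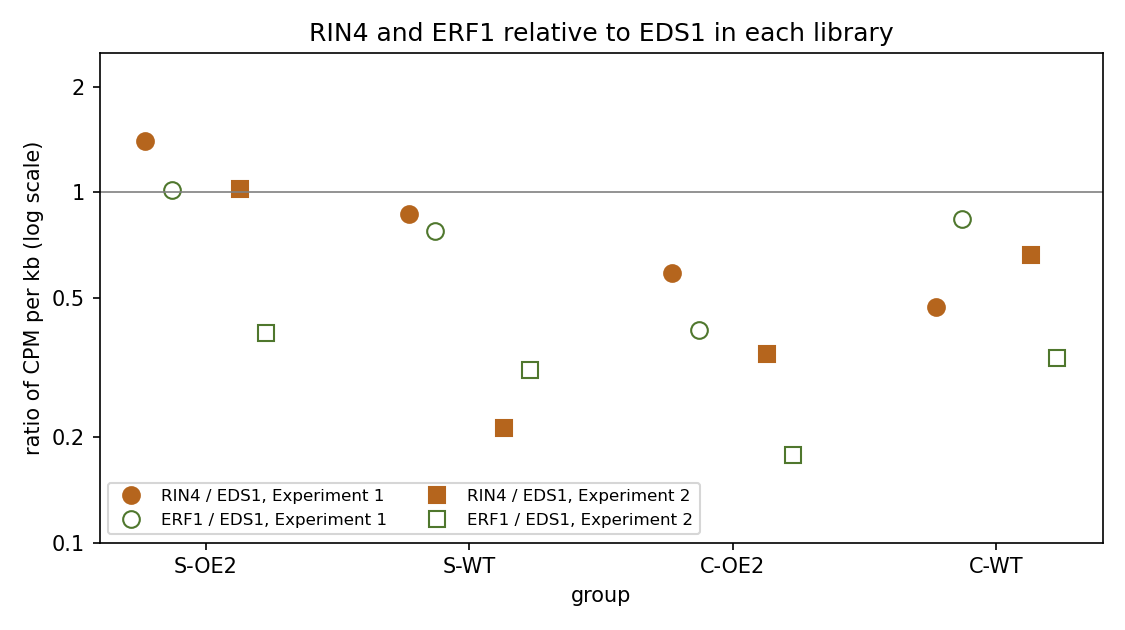
Ratio of the per-length level of *RIN4* (filled) or *ERF1* (open) to that of *EDS1* in each library, on a log axis, by group. Circles are Experiment 1 and squares Experiment 2. By the counted lengths of the gene models, *RIN4* lies above *EDS1* in S-OE2 of Experiment 1 (1.40). *RIN4* is level with *EDS1* within counting error in S-OE2 of Experiment 2 (1.03) and has lower values elsewhere. The *ERF1* ratio is lower in Experiment 2 than in Experiment 1 in every group.

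The difference between the experiments, averaged over the 4 groups, played no part in the choice of the genes and was tested. *ERF1* was lower in Experiment 2 than in Experiment 1 in each group. The Experiment 2 level was 3.85 against 12.1 CPM in S-OE2, 0.68 against 3.42 CPM in S-WT, 0.36 against 1.09 CPM in C-OE2, and 0.61 against 1.70 CPM in C-WT. The log2 differences by group were -1.65, -2.32, -1.58 and -1.49, and the joint value was -1.77 (standard error 0.25) with a Benjamini-Hochberg adjusted p of 0.00287 from edgeR's quasi-likelihood fit. *ERF1* was called under every alternative tried, with adjusted p from 4.81e-06 to 0.0161. With TMM scaling, *EDS1* was also lower in Experiment 2 in each group, by -0.18 to -1.0 on the log2 scale. Its joint value of -0.47 (standard error 0.18) had an adjusted p of 0.113 in the same edgeR test and was not called. Total-count scaling brought the joint value of *EDS1* to -0.13 and moved the median of all genes to 0.35, so the lower level of *EDS1* depends on the scaling. The joint value of *ERF1* was -1.44 with that scaling. *RIN4* was lower in Experiment 2 in 3 of the 4 groups, and C-WT was the exception at 0.31. Its joint value was -1.13 (standard error 0.42) with an adjusted p of 0.113 in edgeR's test. A lower level in Experiment 2 in all 4 groups was seen for 17.8% of the genes tested, and 7.42% were called lower, against 1 of the 3 genes here. The gap was widest in S-WT for all 3 genes, with -1.0 for *EDS1*, -3.04 for *RIN4* and -2.32 for *ERF1*. Whether S-WT differed from the other groups in this was not tested, since each group has 1 library an experiment.

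**Figure D4:**
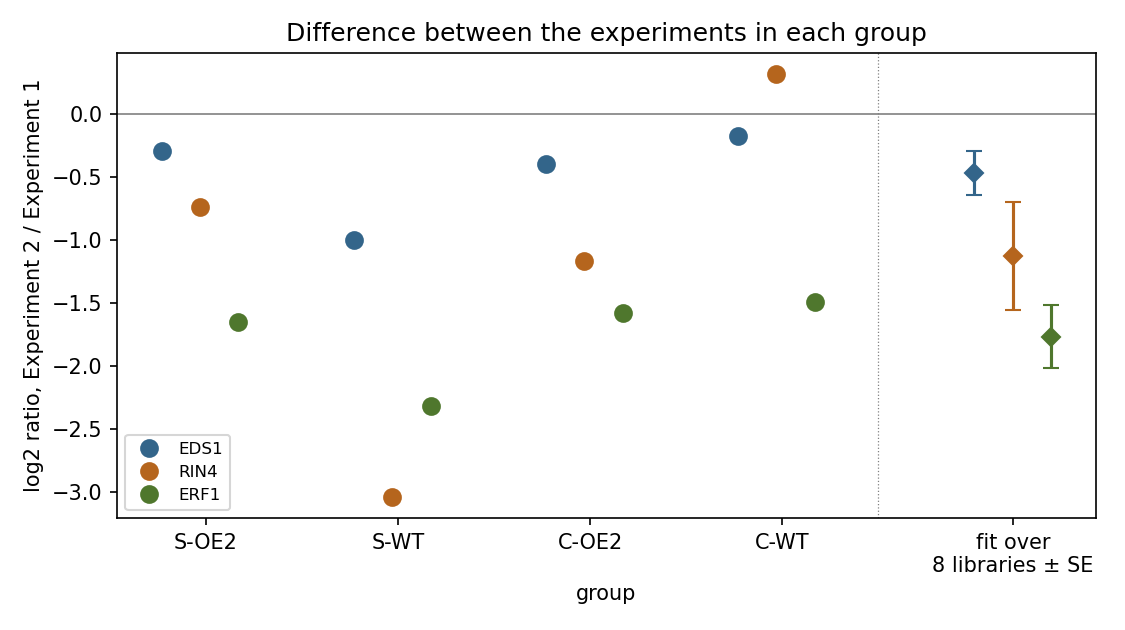
Log2 ratio of Experiment 2 to Experiment 1 for each gene in each group (circles), and the joint value with its standard error from the fit over 8 libraries (diamonds). *ERF1* is lower in Experiment 2 throughout, with a joint value of -1.77, and S-WT has the lowest value of each gene.

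Genes next to the 3 on their scaffolds were picked by position alone and tested between S-OE2 and S-WT. Nitab4.5_0002101g0060, which ends 1091 bases before *EDS1* on the same strand, averaged 39.8 ± 8.66 CPM in S-OE2 and 29.2 ± 11.3 CPM in S-WT (SD, n = 2 each). Its log2 difference was 0.49 (standard error 0.19) and was not called (adjusted p = 0.186, edgeR's quasi-likelihood test), but it was with total-count scaling, at 0.77 and an adjusted p of 0.0449 in edgeR's test, a scaling that moved the median of all genes to 0.30. Nitab4.5_0002101g0070, 1446 bases after *EDS1* on the opposite strand, had 9.36 ± 0.06 CPM in S-OE2 and 11.4 ± 0.64 CPM in S-WT (SD, n = 2 each). Its difference of -0.28 (standard error 0.21) gave an adjusted p of 0.531 in edgeR's quasi-likelihood test. Nitab4.5_0003020g0030, 1629 bases after *RIN4* on the opposite strand, had 11.7 ± 1.83 CPM in S-OE2 and 10.99 ± 1.63 CPM in S-WT (SD, n = 2 each), with a difference of 0.09 (standard error 0.24) and an adjusted p of 0.885 in edgeR's quasi-likelihood test. The genes before *RIN4* and *ERF1* had 0 counts in all 8 libraries, and no gene is annotated after *ERF1* on its scaffold. Over the whole scaffolds, 0 of 3 tested neighbours of *EDS1* and 1 of 16 tested neighbours of *RIN4* were called in either direction by edgeR, against 7.38% of the genes tested. In the same edgeR test an unadjusted p below 0.05 was found for 1 neighbour of *EDS1* and 2 of *RIN4*, and for 9601 of the 44564 genes tested. DESeq2 called 0 neighbours of *EDS1* and 1 of *RIN4*, and 4239 genes in all. The 1 neighbour of *RIN4* called by edgeR, Nitab4.5_0003020g0130, fell by 1.86 on the log2 scale in S-OE2 and was named after its value was seen.

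**Figure D5:**
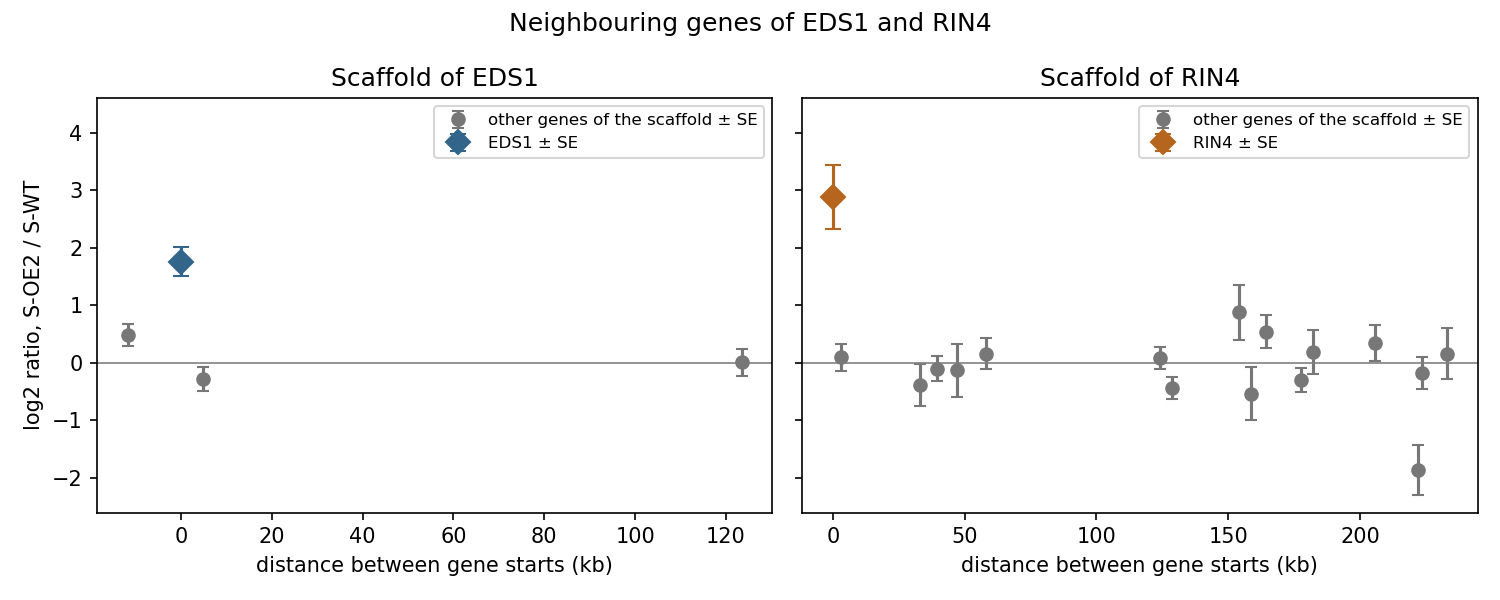
Log2 ratio of S-OE2 to S-WT, with standard errors, of the tested genes on the scaffolds of *EDS1* and *RIN4* against the distance between gene starts in kilobases. The neighbours lie between -0.28 and 0.49 on the scaffold of *EDS1* and between -1.86 and 0.88 on that of *RIN4*, below the 1.76 of *EDS1* and the 2.88 of *RIN4*.

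Likeness to the 3 genes was measured over the 8 libraries as the root mean square difference of log2 CPM profiles, each centred on its own mean. The nearest to *EDS1* were Nitab4.5_0000912g0230, at 0.19, and Nitab4.5_0004203g0010, also at 0.19. Nitab4.5_0004203g0010 had 2531 and 1946 counts in S-OE2 against 621 and 420 in S-WT. For *RIN4* the nearest were Nitab4.5_0001031g0060 and Nitab4.5_0000852g0130, both at 0.36. Nitab4.5_0001031g0060 had 3100 and 2001 counts in S-OE2 against 470 and 37 in S-WT, with a wide gap between the experiments in S-WT as for *RIN4*. With total-count scaling, 0 of these 2 remained among the nearest 2 to *RIN4*. For *ERF1* they were Nitab4.5_0000090g0160 at 0.29 and Nitab4.5_0000410g0140 at 0.37. The files give no descriptions for these identifiers. By the same measure *RIN4* ranked 116 of 44563 genes in closeness to *ERF1*, at 0.69, and *ERF1* ranked 214 in closeness to *RIN4*. *EDS1* ranked 226 from *ERF1*, at 0.76, and 372 from *RIN4*, at 0.78. Seen from *EDS1*, more genes lay nearer, and *ERF1* ranked 2889 and *RIN4* 3327. The 3 genes were chosen for a like pattern over the groups, so these ranks are a description.

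The list of other defense-related genes, by the study's identifiers, included the cell death markers *NRP* and *HSR203J*, several pathogenesis-related (*PR*) genes and the catalase gene *CAT1*. By edgeR's quasi-likelihood test, 8 of its 9 genes were called higher in S-OE2 relative to S-WT, beside 4.17% of the genes tested, and DESeq2 called 6 of them. The gene not called by edgeR was *PR1a*, a salicylic acid response marker named here after its value was seen. Its log2 difference of 6.72 had the largest standard error of the list, 1.87. Most of the list was chosen by the study on these libraries, so the count is a description. The median log2 difference of the list was 6.16, with a range of 1.52 to 7.68. The values of *EDS1* (1.76), *ERF1* (2.08) and *RIN4* (2.88) lay between the lowest value and the median of that list. Between the experiments, 0 of the 9 were called by edgeR in either direction, beside 6140 of the 44564 genes tested. DESeq2 called 0, and 1 of the 9 had an unadjusted p below 0.05, as did 13231 of all genes.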

How the data were processed

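Per the study's methods, paired-end reads were aligned to the Nitab-v4.5 tobacco assembly with HISAT2 2.0.5, further transcripts were assembled with StringTie 1.3.3b, and reads per gene were counted with featureCounts 1.5.0-p3. The authors deposited these raw counts for 81378 genes, of which 11878 came from the assembled transcripts. The authors also deposited FPKM values, made from the counts and gene lengths, which were not used. Counts per kilobase were computed from the raw counts instead.

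Low-count genes were removed by filterByExpr, and the rest were scaled with TMM factors and fitted in edgeR 4.0.16 under R 4.3.3 (limma 3.58.1), over all 8 libraries, with group and experiment as terms. The quasi-likelihood test was adjusted over 44564 genes by the Benjamini-Hochberg method at 0.05. Standard errors are the absolute log2 difference divided by the square root of F. The experiment is a term because the study compared groups within each experiment. Libraries of one experiment deviated together, with correlations of 0.364 to 0.487 for the 6 pairs of groups. The p-values rest on the spread left between libraries after the group and experiment terms, with 2 libraries of pooled plants per group. The code was tested on simulated data.

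The members and lists were chosen with earlier results of these data known. Named genes are the 3 members, the nearest gene on each side on the scaffold, and the 2 genes with the most similar profile (prior count 1) for each member. Alternatives were DESeq2 1.42.0, no filter (genes with any count), no term for the experiment, total-count scaling, the 4 libraries of a comparison alone, a minimum log2 difference of 1 and leaving out each library.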

Additional observations from a re-analysis of the deposited data

Results flagged for a closer look

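*RIN4* had opposite signs in the experiments for 2 comparisons, each of 1 library with 1 library, and the difference between the experiments was not tested. For S-WT against C-WT its log2 ratio was -1.35 in Experiment 2 and 2.00 in Experiment 1. For C-OE2 against C-WT it was -0.75 in Experiment 2 and 0.73 in Experiment 1. The libraries concerned held 10 to 76 counts of *RIN4*.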

How the results depend on the processing

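With DESeq2, no filter or the 4 libraries of a comparison alone, each of the 3 genes kept its direction in every comparison run. Without the experiment term (no replicate block), S-OE2 against C-OE2 was 3.51 for *ERF1*, C-OE2 against C-WT turned to 0.044 for *RIN4*, and 5 in place of 3288 genes were called for S-OE2 against S-WT, 263 in place of 5309 for S-OE2 against C-OE2, 0 in place of 39 for S-WT against C-WT, 3 in place of 16 for C-OE2 against C-WT and 0 in place of 7 for the interaction. Total-count scaling gave 2.67 for *EDS1*, 4.08 for *RIN4* and 3.93 for *ERF1* in S-OE2 against C-OE2, -0.61 for *ERF1* in C-OE2 against C-WT, and 0.77 for Nitab4.5_0002101g0060 and 0.011 for Nitab4.5_0002101g0070 in S-OE2 against S-WT. It called 9775 genes for S-OE2 against C-OE2, 39 for C-OE2 against C-WT, 42 for the interaction and 11277 between experiments, against 6140. DESeq2 called 590 genes for S-WT against C-WT, 243 for C-OE2 against C-WT and 820 for the interaction, and edgeR without the filter called 323, 236 and 357 in these. The 4 libraries alone gave 25 for S-WT against C-WT and 213 for C-OE2 against C-WT, and a minimum log2 difference of 1 gave 3403 between experiments.

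By experiment, *RIN4* turned to -1.35 in Experiment 2 for S-WT against C-WT and to 0.73 in Experiment 1 for C-OE2 against C-WT. By group, Experiment 2 against Experiment 1 was -1.0 for *EDS1*, -3.04 for *RIN4* and -2.32 for *ERF1* in S-WT, and turned to 0.31 for *RIN4* in C-WT. With each library left out in turn, S-OE2 against C-OE2 ranged from 2.07 to 2.31 for *EDS1* and from 3.31 to 3.55 for *ERF1*. C-OE2 against C-WT ranged from 0.11 to 0.50 for *EDS1*, from -0.91 to 0.88 for *RIN4* and from -0.89 to -0.52 for *ERF1*. S-WT against C-WT of *RIN4* ranged from -0.97 to 1.53, with -0.26 without C-WT of Experiment 1. Genes called ranged from 1101 to 3193 for S-OE2 against S-WT, 1274 to 5587 for S-OE2 against C-OE2, 1 to 223 for S-WT against C-WT, 1 to 114 for C-OE2 against C-WT, 0 to 225 for the interaction and 2450 to 5502 between experiments. The cause was not tested. Counts of 10 to 25 a library limit *RIN4* and *ERF1* outside S-OE2, except in S-WT of Experiment 1, where they had 76 and 83.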
